A study of Mus musculus with 8 samples.

Results

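The 9 genes described here encode surface proteins that are used to mark or sort epithelial stem and tumour cells: Cd44, Cd24a, Prom1 (CD133), Alcam (CD166), Epcam, the integrin subunit genes Itga6, Itgb1 and Itgb4, and the tetraspanin gene Cd9. They were taken by name, and every array probe annotated to one of them was used, 23 probes in all out of 45281 on the array. For each gene the probe with the highest mean over the 8 arrays served as its main probe. All 9 genes are among the 12466 of 19057 named genes that passed the filter on dim probes and were tested, and 20 of their 23 probes passed it as well.

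RNA came from mouse intestinal organoids, 3-dimensional epithelial cultures grown from C57Bl mice aged 2 to 3 months. All cultures carried Lgr5-EGFP-IRES-CreER and Apcflox/flox, so that tamoxifen, given for 2 days, removed Apc in cells that expressed Cre from the stem cell gene Lgr5. R-Spondin1, a Wnt agonist that cells without Apc can do without, was then withdrawn, for 18 days before the day 20 samples and for 5 days before the day 7 samples. There were 4 samples of each day, 1 Illumina beadchip array each, and none came from undeleted cultures, so time since deletion, time without R-Spondin1 and time in culture cannot be told apart.

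CD44 binds hyaluronan in the matrix through its extracellular part and the actin cytoskeleton through ERM proteins, and its gene is a known target of Wnt signalling in the crypt, where loss of Apc raises it in mouse adenomas. Integrins are pairs of an alpha and a beta chain: the alpha 6 chain pairs with beta 1 or beta 4 to bind laminin, and the beta 4 pair anchors epithelial cells to the basement membrane through hemidesmosomes. EpCAM is an adhesion protein of nearly all simple epithelia, CD24 a small GPI-anchored glycoprotein, prominin-1 a protein of membrane protrusions that spans the membrane several times, ALCAM an adhesion molecule of the immunoglobulin family, and CD9 a tetraspanin that associates with integrins and EpCAM.

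The stretches upstream of Cd44 and Epcam are shown because Cd44 is the textbook Wnt target of the set and Epcam its general epithelial marker. They are the 250 bases before the start that the RefSeq promoter table gives for each gene, 5′ to 3′ on the gene's own strand, in build GRCm38.p6: chr2:102901666-102901915 on the minus strand for Cd44 and chr17:87635729-87635978 on the plus strand for Epcam. The RefSeq span of Cd44 ends at 102901669 and so reaches a few bases into its window.
Cd44: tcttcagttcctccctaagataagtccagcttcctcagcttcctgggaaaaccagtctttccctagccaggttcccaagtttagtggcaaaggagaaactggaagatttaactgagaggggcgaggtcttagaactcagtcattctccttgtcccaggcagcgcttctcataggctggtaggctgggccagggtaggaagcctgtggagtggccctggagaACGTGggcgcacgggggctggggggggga
Epcam: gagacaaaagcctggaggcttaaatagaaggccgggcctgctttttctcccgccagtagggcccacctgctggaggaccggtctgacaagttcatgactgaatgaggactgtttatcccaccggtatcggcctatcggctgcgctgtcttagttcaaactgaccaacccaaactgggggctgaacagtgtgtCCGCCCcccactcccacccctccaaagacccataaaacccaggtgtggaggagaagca
Capitals mark matches, on either strand, to the TCF/LEF core CTTTGA, the hypoxia response core ACGTG or the GC box GGGCGG. The Cd44 window held 1 match, to ACGTG, and the Epcam window held 1, to the GC box, so no matches overlap in them. Of 32851 such windows upstream of mouse genes, 13.8% held the TCF/LEF core, 16.6% the hypoxia core and 32.7% the GC box. Windows of Prom1, Cd9, Itgb1 and Alcam were searched too and held 0 matches to CTTTGA. No match says only that these letters are not in these windows.

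The deposited values are log2 intensities with the same distribution on every array (median 6.81), and a background limit of 6.796 was set from the values themselves. Day 20 replicates 1 and 4 stood apart from the other 6 arrays: Xist, a noncoding RNA made from the inactive X chromosome, read 6.68 and 6.74 there against 9.39 to 10.41 elsewhere, and the Y-linked gene Eif2s3y read 8.34 and 8.51 against 6.66 to 6.73. Of the day 7 arrays, replicate 2 was the least like the rest: its Pearson r with each of them, taken across genes, which are not independent replicates, was 0.9725 to 0.9797. By Xist and Eif2s3y, day 20 replicates 1 and 4 read as male and the other 6 arrays, every day 7 array among them, as female. Sex was thus not balanced between the days, and the day 20 samples came from more than 1 animal. Beyond that, nothing in the labels ties the replicates to separate cultures or animals. The p-values then reflect only how these samples vary, which may in part be technical, and precision is limited by the number of arrays. All 9 epithelial markers examined (Cdh1, Krt8, Krt18, Krt19, Vil1, Cdx2, Cldn3, Cldn7 and Elf3) were above the limit on all 8 arrays. In whole cultures, fewer cells of a type and less RNA per cell cannot be told apart. Probes differ in how strongly they bind, so levels are compared between arrays for a given probe and not between probes.

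Between day 20 and day 7 none of the 9 genes changed by the test (limma, Benjamini-Hochberg adjusted p under 0.05), and 4.85% of all tested genes did. None of 9 is near that share, and a gene that misses the threshold is not thereby shown to be level. At an unadjusted p under 0.05 the count was 2 of 9, Cd24a and Prom1, against 20.4% of all tested genes. The day 20 and day 7 arrays did not overlap for 1 of the 9, Cd24a, against 13.1% of all tested genes. Differences of the main probes, day 20 minus day 7, lay between -0.16 and 0.48 on the log2 scale with a median of 0.0375, and the median over all tested genes was 0.005. They were positive for 5 genes (Cd44, Prom1, Alcam, Epcam and Itgb4) and negative for 4.

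**Figure D1:**
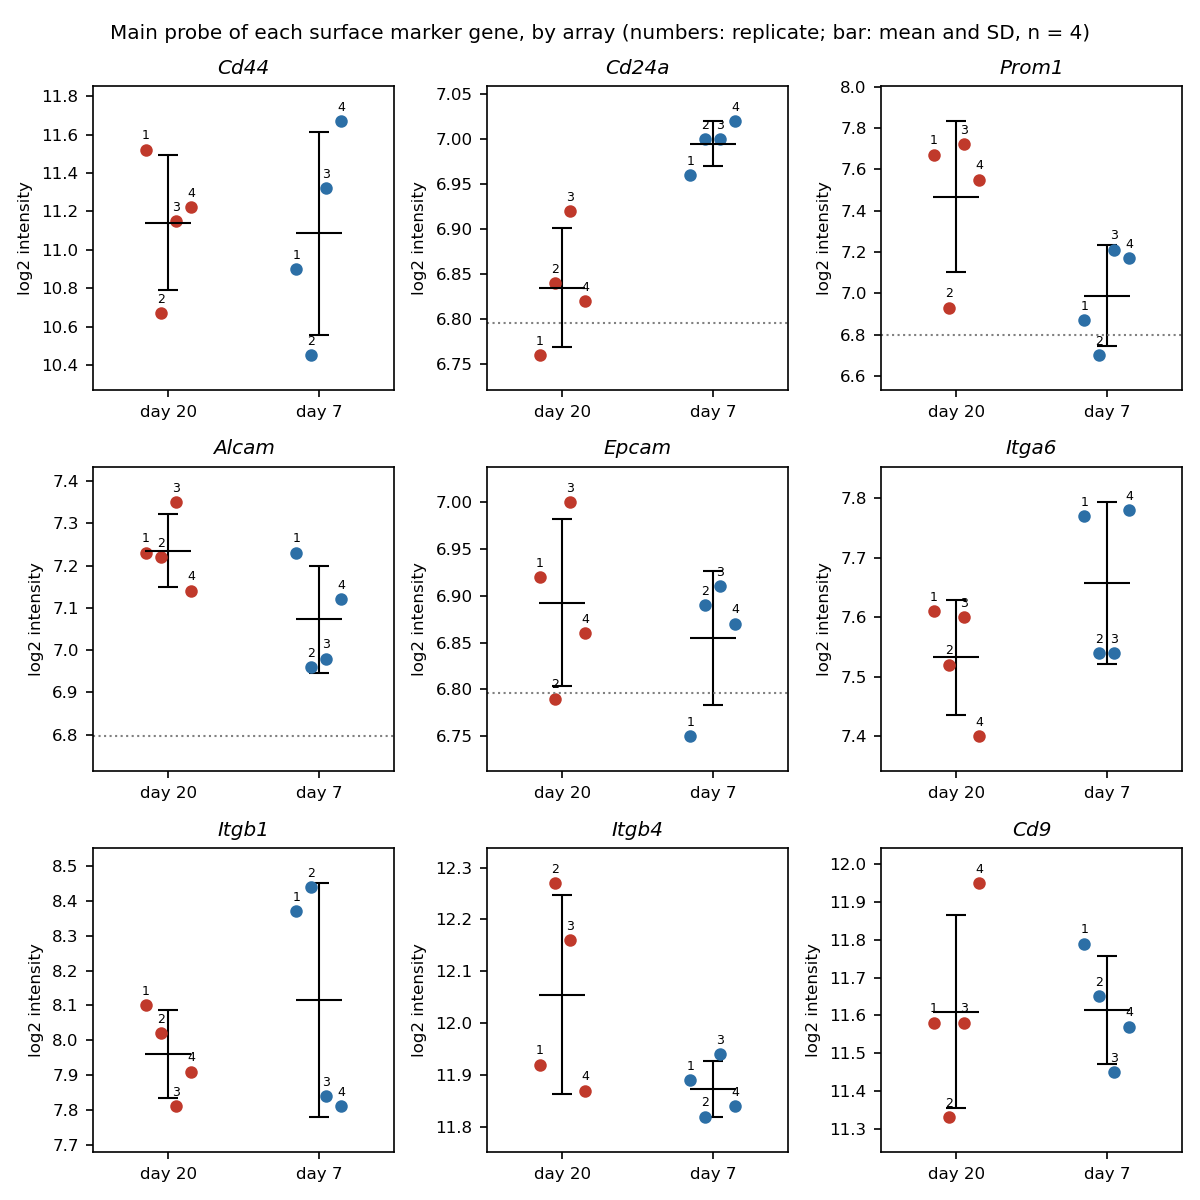
Log2 intensity of the main probe of each of the 9 genes on the 4 day 20 arrays (red) and the 4 day 7 arrays (blue); numbers give the replicate, black bars the mean and SD, and the dotted line, where in range, the background limit of 6.796. Each panel has its own vertical axis. The days overlap in all panels except that of Cd24a, whose day 20 arrays lie at 6.76 to 6.92 and day 7 arrays at 6.96 to 7.02.

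Cd44 was bright on every array and did not separate the days. Its main probe read 11.52, 10.67, 11.15 and 11.22 on day 20 replicates 1 to 4, against 10.90, 10.45, 11.32 and 11.67 on day 7 replicates 1 to 4. The highest and the lowest value were both at day 7, and the day 20 arrays lay between them. Means were 11.14 ± 0.35 at day 20 and 11.09 ± 0.53 at day 7 (SD, n = 4 a day), a difference of 0.055 (SE 0.27, limma adjusted p = 0.94). As a fold, day 20 over day 7, that was 1.04 with a 95% confidence interval from 0.674 to 1.60, so changes in either direction within these bounds are not excluded by 4 arrays a day. Without day 7 replicate 2 the difference was -0.157, and on the 6 arrays that showed Xist the difference was -0.175, with limma adjusted p-values of 0.80 and 0.86.

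Of the 9 Cd44 probes, 7 were above the limit on at least 4 arrays, and none of these 7 changed (limma over all 23951 probes tested; 3.56% of them changed). The next brightest probe, ILMN_3114585, read 8.71, 8.42, 8.63 and 9.0 on day 20 replicates 1 to 4, against 8.50, 8.10, 8.70 and 9.22 on day 7 replicates 1 to 4. The third, ILMN_2640330, read 8.14, 7.70, 7.97 and 8.29 at day 20 and 7.92, 7.64, 7.84 and 8.38 at day 7, in the same order of replicates. These probes followed the main probe: day 7 replicate 4 was the highest array and day 7 replicate 2 the lowest for all of them. Across the 7 probes the difference ran from -0.065 to 0.125. It was positive for 6, and day 7 replicate 2 was the lowest array for those 6; the exception, ILMN_1246460, was above the limit on 1 day 20 array and 3 day 7 arrays. Of the other 2 probes, ILMN_1228214, the only one annotated to another RefSeq transcript of Cd44, was above the limit on 1 array of each day and read at most 6.82.

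The spread of Cd44 within each day was therefore larger than the difference between the days, with an SD over all 8 arrays of 0.42. Day 7 replicate 2, where Cd44 was lowest, had the highest summed level of the markers of differentiated cells: intensity above background, summed over 12 such genes with a named probe, was 136200 there, against 38120 to 50760 on the other day 7 arrays. Of these 12 genes 11 were tested, and at day 20 the sum lay between 4261 and 22390, all below day 7, while the days overlapped for Cd44. The brightest gene weighs most in such a sum. At day 20 that was Lyz1, at 11.75 to 14.37, which differed by -1.063 without passing (limma adjusted p = 0.29). Of the 11 tested genes 9 were lower at day 20 (limma, where 2.33% of all tested genes were), and the median difference was -3.117. At day 7 the 11 genes were highest on replicate 2, except Lyz1 (replicate 1) and Chgb (replicate 4). Whether cell makeup bears on the Cd44 level was not tested. At day 20 the main Cd44 probe averaged 11.37 on replicates 1 and 4, the arrays without Xist signal, and 10.91 on replicates 2 and 3.

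The genes with the profile closest to that of Cd44 were Kcnn4, a calcium-activated potassium channel gene, Mcm10, a DNA replication factor gene, and Polr1b, a subunit gene of RNA polymerase I. Likeness was the mean absolute gap over the 8 arrays between the profiles, each centred on its own mean, among the 1909 tested genes whose SD over the arrays was 0.67 to 1.5 times that of Cd44. The gap was 0.109 on the log2 scale for Kcnn4, 0.115 for Mcm10 and 0.117 for Polr1b, against a median of 0.436 over the 1909 genes. For each of the 3, as for Cd44, day 7 replicate 2 was the lowest array. The points share the arrays and their normalization, and the likeness is a description with no test.

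**Figure D2:**
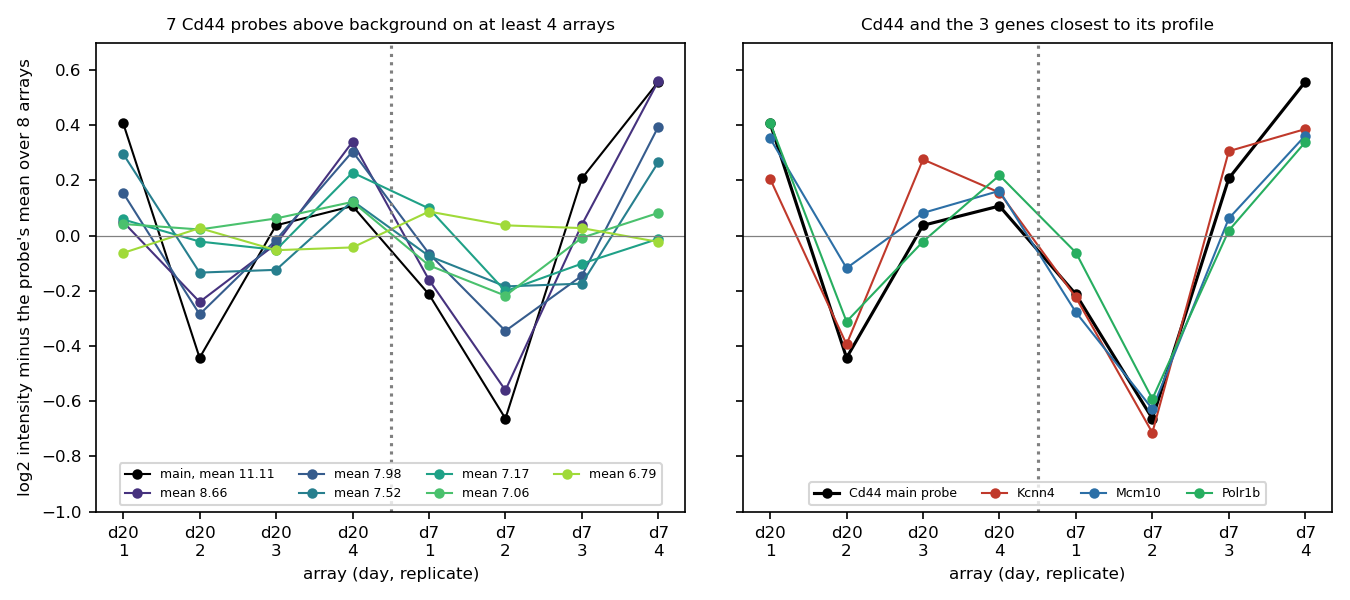
Log2 intensity minus the mean over the 8 arrays (vertical axis), by array (day 20 replicates 1 to 4, then day 7 replicates 1 to 4), for the 7 Cd44 probes above background on at least 4 arrays (left; the legend gives each probe's mean level) and for the main Cd44 probe with Kcnn4, Mcm10 and Polr1b (right). Day 7 replicate 2 is the lowest array for 6 of the 7 Cd44 probes, the brightest probes have the widest range, and the 3 other genes run close to Cd44.

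Prom1 had the largest difference of the 9 genes, and it did not pass the test. The main probe, ILMN_1249786, annotated to a cDNA clone, read 7.67, 6.93, 7.72 and 7.55 on day 20 replicates 1 to 4, against 6.87, 6.70, 7.21 and 7.17 on day 7 replicates 1 to 4. Of the day 20 arrays 3 exceeded every day 7 array, while day 20 replicate 2 lay within the day 7 range; day 7 replicate 2 was below the limit. Means were 7.47 ± 0.37 at day 20 and 6.99 ± 0.24 at day 7 (SD, n = 4 a day), a difference of 0.48 (SE 0.19, limma adjusted p = 0.20), or 1.40-fold with a 95% confidence interval from 1.03 to 1.89. Without day 20 replicate 2, where 2.99% of all tested genes changed, the difference was 0.66 and passed (limma adjusted p = 0.04964), and with the background mode subtracted it was 1.24 on all 8 arrays without passing (0.18). Adjusted p-values over its 17 alternative settings ran from 0.04964 to 0.55. A second probe, annotated to the RefSeq transcript, differed by 0.1075 and was above the limit on 3 day 20 arrays and 1 day 7 array, and the third was above the limit on 0 arrays.

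Cd24a and Epcam were measured by 1 named probe each, and both probes lay close to background, so changes in these genes would be compressed. Cd24a read 6.76, 6.84, 6.92 and 6.82 on day 20 replicates 1 to 4, against 6.96, 7.00, 7.00 and 7.02 on day 7 replicates 1 to 4. Every day 20 array was below every day 7 array, by a small margin, and day 20 replicate 1 was below the limit. The difference was -0.16 (SE 0.052, limma adjusted p = 0.14), a fold of 0.895 with a 95% confidence interval from 0.824 to 0.973. With the background mode subtracted it was -0.611 (0.056), and over its 17 alternative settings the adjusted p ran from 0.056 to 0.42.

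Epcam read 6.92, 6.79, 7.00 and 6.86 on day 20 replicates 1 to 4, against 6.75, 6.89, 6.91 and 6.87 on day 7 replicates 1 to 4. The days overlapped, and 1 array of each day was below the limit. The difference was 0.0375 (SE 0.065, limma adjusted p = 0.81). This reading near background stands beside epithelial markers far above it: Cdh1, encoding E-cadherin, averaged 10.45 at day 20 and 10.09 at day 7, and Krt8, a keratin of simple epithelia, averaged 13.85 at day 20 and 13.75 at day 7. How well the Epcam probe detects its transcript was not tested.

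Alcam, also measured by 1 named probe, read 7.23, 7.22, 7.35 and 7.14 on day 20 replicates 1 to 4, against 7.23, 6.96, 6.98 and 7.12 on day 7 replicates 1 to 4. All 8 arrays were above the limit, and day 7 replicate 1 lay within the day 20 range. Means were 7.24 ± 0.087 at day 20 and 7.07 ± 0.13 at day 7 (SD, n = 4 a day), a difference of 0.1625 (SE 0.078, limma adjusted p = 0.29). This probe too was dim, and with the background mode subtracted the difference was 0.4426 (0.23).

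**Figure D3:**
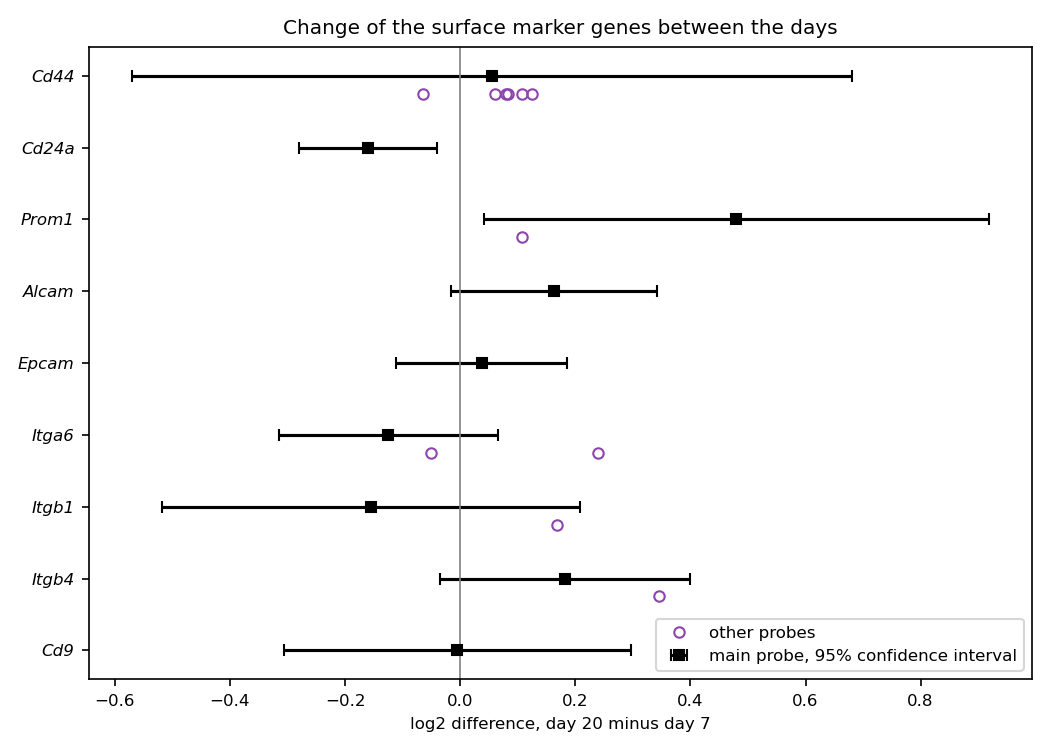
Log2 difference, day 20 minus day 7 (horizontal axis), of the 9 genes: squares give the main probe with its 95% confidence interval (limma), open circles the other probes above background on at least 4 arrays. The intervals of Cd24a (-0.28 to -0.04) and Prom1 (0.04 to 0.92) do not contain 0 before adjustment over all genes, and other probes of Itga6 and Itgb1 lie on the other side of 0 from the main probe.

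Itgb4, the hemidesmosomal beta chain, was bright and read higher at day 20 by both of its probes, without passing. The main probe, ILMN_3144575, read 11.92, 12.27, 12.16 and 11.87 on day 20 replicates 1 to 4, against 11.89, 11.82, 11.94 and 11.84 on day 7 replicates 1 to 4. Day 20 replicates 2 and 3 exceeded every day 7 array, and replicates 1 and 4 lay within the day 7 range. Means were 12.06 ± 0.19 at day 20 and 11.87 ± 0.054 at day 7 (SD, n = 4 a day), a difference of 0.1825 (SE 0.095, limma adjusted p = 0.33), and the 95% confidence interval of the fold, 0.976 to 1.32, lies below a 1.5-fold change. On the 6 arrays with Xist signal, which leave out day 20 replicates 1 and 4, the difference was 0.3425 (0.064).

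The second Itgb4 probe, ILMN_2634689, is annotated to another RefSeq transcript of the gene. It read 10.70, 11.01, 10.87 and 10.63 on day 20 replicates 1 to 4, against 10.57, 10.47, 10.41 and 10.38 on day 7 replicates 1 to 4. Here every day 20 array exceeded every day 7 array, and again day 20 replicates 2 and 3 were the highest. The difference was 0.345 (limma adjusted p over all probes tested = 0.081); 11.7% of all probes tested had days that did not overlap. Averaged over both probes it was 0.264 (0.14).

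Itga6, the laminin-binding alpha chain that pairs with beta 1 or beta 4, gave opposite signs by different probes. The main probe, ILMN_1236600, annotated to a cDNA clone, read 7.61, 7.52, 7.60 and 7.40 on day 20 replicates 1 to 4, against 7.77, 7.54, 7.54 and 7.78 on day 7 replicates 1 to 4. The probe annotated to the RefSeq transcript, ILMN_1231492, read 7.62, 7.70, 7.67 and 7.53 at day 20 and 7.28, 7.31, 7.46 and 7.51 at day 7, in the same order of replicates. The main probe overlapped between the days, whereas the RefSeq probe was higher on every day 20 array than on any day 7 array. Of all probes tested, 11.7% had days that did not overlap.

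The main Itga6 probe differed by -0.125 (SE 0.083, limma adjusted p = 0.45) and the RefSeq probe by 0.24 (limma adjusted p over all probes = 0.11). The third probe, also on a cDNA clone, differed by -0.05. To ask whether probes of a gene moved alike, the log2 ratio of each other probe to the main probe was compared between the days for the 11 such pairs of the 9 genes. For the RefSeq Itga6 probe that ratio was 0.01 to 0.18 at day 20 and -0.49 to -0.08 at day 7, so the days did not overlap (exact permutation test, two-sided, n = 4 each, p = 0.0286, the smallest this design can give; adjusted over the 11 pairs, 0.16). The same p-values held for the pair of Itgb4 probes, with a ratio of -1.29 to -1.22 at day 20 and -1.53 to -1.32 at day 7. For the 6 Cd44 pairs the exact permutation p ran from 0.77 to 0.97. The main Cd44 probe hardly differed between the days, so these values cannot show whether its probes follow each other from array to array. For the dimmest of them, ILMN_1246460, the ratio ran from -4.9 to -3.62 within day 7.

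Itgb1, the beta chain shared by many integrins, also had probes of opposite sign, neither of which passed. The main probe, ILMN_2609304, read 8.10, 8.02, 7.81 and 7.91 on day 20 replicates 1 to 4, against 8.37, 8.44, 7.84 and 7.81 on day 7 replicates 1 to 4. The other, ILMN_2789077, read 7.70, 7.71, 7.47 and 7.36 at day 20 and 7.47, 7.23, 7.60 and 7.27 at day 7, in the same order of replicates. Day 7 replicate 2 was the highest of all arrays by the main probe and the lowest by the other, although both probes are annotated to the same RefSeq transcript. The differences were -0.155 (SE 0.16, limma adjusted p = 0.66) and 0.1675 (0.48 over all probes), and the average of both probes differed by 0.00625.

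**Figure D4:**
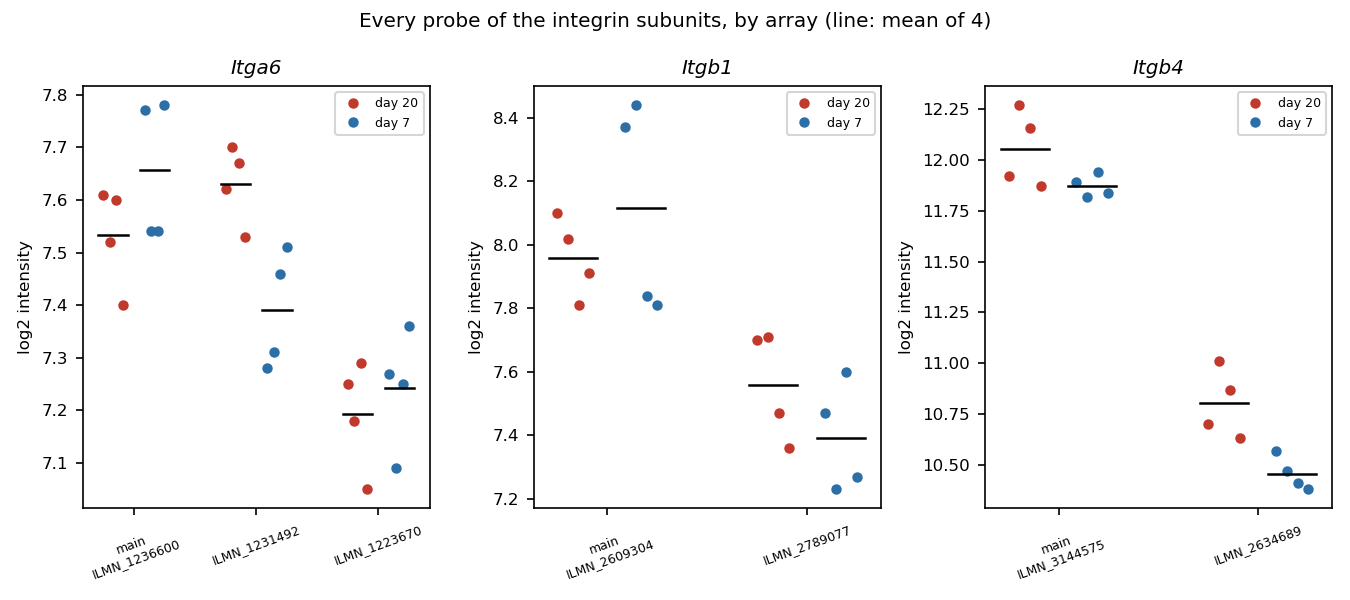
Log2 intensity (vertical axis, a scale for each panel) of every probe of Itga6, Itgb1 and Itgb4 on the 4 day 20 arrays (red, left of each pair) and the 4 day 7 arrays (blue); black lines are means of 4. Day 20 lies above day 7 without overlap for the Itga6 probe ILMN_1231492 and the Itgb4 probe ILMN_2634689, and the main Itga6 probe has the opposite sign. Of all probes tested, 11.7% had days that did not overlap.

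Cd9 was bright and nearly level between the days. It read 11.58, 11.33, 11.58 and 11.95 on day 20 replicates 1 to 4, against 11.79, 11.65, 11.45 and 11.57 on day 7 replicates 1 to 4. The highest and the lowest array were both at day 20. Means were 11.61 ± 0.26 at day 20 and 11.62 ± 0.14 at day 7 (SD, n = 4 a day), a difference of -0.005 (SE 0.13, limma adjusted p = 0.99), and the fold had a 95% confidence interval from 0.809 to 1.23.

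Markers of other cell types that could carry these surface proteins were examined as whole lists. Of 9 leukocyte genes with a named probe, 6 were above the limit on at least 4 arrays (Cd3e, Cd3g, Cd4, Csf1r, Laptm5 and Coro1a), and the other 3, Ptprc, Cd8a and Itgam, on 0 arrays. Of the 6, Laptm5 rose by 0.565 (limma adjusted p = 0.0424), and the other 5 had day means of at most 6.95. The summed intensity above background of the 9 genes was 128.9 to 213.5 at day 20 against 86.65 to 105.4 at day 7. Of 11 mesenchymal genes, 5 were above the limit on at least 4 arrays (Vim, Col1a2, Pdgfra, Acta2 and Des), and Col1a1 and Thy1 on 0 arrays. Of the 5, Col1a2, Pdgfra and Des were near background, with day means of at most 6.885 and differences of -0.075, 0.0325 and -0.03. The summed intensity of these 11 was 220.8 to 2531 at day 20 and 2819 to 4799 at day 7. Of this list, Vim, encoding vimentin, averaged 9.76 ± 1.67 at day 20 and 11.80 ± 0.33 at day 7 (SD, n = 4 a day; limma adjusted p = 0.16), and Acta2, encoding smooth muscle actin, 7.29 ± 0.41 at day 20 and 8.95 ± 0.83 at day 7 (0.054). Vim read 8.74 and 7.95 on day 20 replicates 1 and 4, which read as male, and 11.05 and 11.31 on day 20 replicates 2 and 3. The day 7 arrays read 11.41 to 12.13. The sum over the list split alike at day 20, with 398.9 and 220.8 on replicates 1 and 4 and 2195 and 2531 on replicates 2 and 3. The part of mesenchymal or leukocyte cells in the Cd44, Itgb1 and Cd24a readings was not tested. Of 6 endothelial genes, Cdh5, Kdr and Tek were above the limit on all 8 arrays, with day means of at most 6.92, and the 6 summed to 40.1 to 72.12 at day 20 and 35.09 to 66.74 at day 7.

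Genes that work with the surface markers were examined in lists. Over all tested genes, 4.85% changed and 20.4% had an unadjusted p under 0.05 (limma), so none changed in a short list is near that share. Of 12 tested other integrin subunits none changed (limma; 2 at an unadjusted p under 0.05) and the median difference was -0.0225. Closest to the threshold were Itgae, an alpha chain of intraepithelial lymphocytes, at -0.235 (limma adjusted p = 0.10), Itga2, a collagen-binding alpha chain, at 0.38 (0.19), and Itga5, the alpha chain of the fibronectin receptor, at -0.12 (0.28). Of 13 tested laminin and basement membrane genes, the ligands of these integrins, none changed (4 at an unadjusted p under 0.05) and the median was 0.07. Lama5, the laminin alpha 5 chain, averaged 9.19 ± 0.13 in day 20 cultures and 8.64 ± 0.27 in day 7 cultures (SD, n = 4 a day), with a limma adjusted p of 0.058. The collagen IV genes Col4a2 and Col4a1 differed by 1.06 and 0.995 (0.092 and 0.10). On the 6 arrays with Xist signal the differences were 0.7675 and 0.73 (0.36 and 0.38). Both genes were dim on day 7 replicates 1 and 2, at 6.96 to 7.04, and read 7.68 to 8.28 on day 7 replicates 3 and 4.

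Among 5 tested partners of the hemidesmosome none changed (limma; 2 at an unadjusted p under 0.05), with a median of -0.0125. Plec, encoding the plectin that links integrin beta 4 to keratin, differed by -0.3675 (limma adjusted p = 0.18). That sign is opposite to that of Itgb4 itself, but neither gene passed, and with probes averaged Plec differed by only -0.077 (0.51). The tetraspanin gene Cd151 differed by -0.1775 (0.19) and Col17a1, encoding a transmembrane collagen of hemidesmosomes, by 0.03 (0.85). Of 21 tested adaptors on the inner side of integrins none changed (limma; 4.85% of all tested genes did) and 6 had an unadjusted p under 0.05 (20.4% of all tested genes did), with a median of -0.0325. In 10 of 17 alternatives 1 or 2 of them passed. Zyx, encoding the focal adhesion protein zyxin, read 12.88, 12.05, 12.64 and 12.94 on day 20 replicates 1 to 4, against 13.35, 13.30, 13.44 and 13.49 on day 7 replicates 1 to 4. Its days did not overlap, with a difference of -0.7675 (SE 0.18, limma adjusted p = 0.053) that was -1.05 and passed on the 6 arrays with Xist signal (0.0268). Zyx also passed after subtraction of the background mode (0.046), and in 7 of 17 alternatives in all. It missed with no filter, with probes averaged and with replicate number as a block. With 1 array left out it passed only without day 20 replicate 2, and its limma adjusted p over the alternatives reached 0.12. Ilk, the integrin-linked kinase gene, differed by -0.3625 (limma adjusted p = 0.058) and passed in 2 of 17 alternatives. Ptk2b, a focal adhesion kinase relative, was dim, with means of 7.105 at day 20 and 6.905 at day 7. It differed by 0.20 (0.062), and passed with the background mode subtracted (0.0231) and with probes averaged (0.043). In all it passed in 4 of 17 alternatives, missed with any 1 array left out, and its adjusted p reached 0.24.

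Of 14 tested genes around CD44, which make or cut hyaluronan, link it to actin, cut its ectodomain or splice its transcript, 1 rose and none fell (limma; 2.51% and 2.33% of all tested genes), and the median was 0.046. The riser was Mmp7, encoding the protease matrilysin, at 0.83 (limma adjusted p = 0.0164). Without day 7 replicate 1 its adjusted p was 0.052, and with the background mode subtracted its difference was 2.13. Its probe was dim, at 7.38 to 8.10 at day 20 and 6.74 to 6.89 at day 7, around the limit, so the size of its change is uncertain. Of 10 tested EpCAM partners none changed (limma, where 4.85% of all tested genes did), with a median of 0.136. At an unadjusted p under 0.05 there were 3, against 20.4% of all tested genes. The nearest were the protease inhibitor genes Spint2, at 0.2625 (limma adjusted p = 0.14), and Spint1, at -0.3175 (0.16), and the claudin gene Cldn7, at 0.425 (0.16).

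Among 18 tested tetraspanins and their partners, the family of Cd9, 1 rose and 1 fell (limma; 2.51% and 2.33% of all tested genes). Tspan33 read 7.86, 8.16, 8.28 and 8.32 on day 20 replicates 1 to 4, against 7.47, 7.14, 7.39 and 7.28 on day 7 replicates 1 to 4. Every day 20 array was above every day 7 array, where 13.1% of all tested genes had days that did not overlap. The gene, whose product promotes surface delivery of the protease ADAM10, rose by 0.835 (SE 0.12, limma adjusted p = 0.00668), 1.78-fold. Its change with the background mode subtracted was 1.46. Cd63, a tetraspanin of late endosomes and lysosomes, read 12.70, 12.81, 12.80 and 12.90 at day 20 and 13.24, 13.34, 13.21 and 13.10 at day 7, in the same order of replicates. It fell by 0.42 (SE 0.069, limma adjusted p = 0.0145), and on the 6 arrays with Xist signal the difference was -0.4175 with an adjusted p of 0.057. The call of Cd63 was also lost with the background mode subtracted (0.087), with probes averaged (0.093) and with replicate number as a block (0.063), and it held in the other 13 of 17 alternatives. The list median was 0.061.

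Of 15 tested other surface or sorting markers of stem cells, 1 fell and none rose (limma; 2.33% and 2.51% of all tested genes), with a median of 0.04. The one that fell was Lgr5, the R-spondin receptor gene, with 8.99 ± 0.24 in day 20 cultures and 9.80 ± 0.24 in day 7 cultures (SD, n = 4 a day), a change of -0.82 (limma adjusted p = 0.0215). The adjusted p was 0.13 on the 6 arrays with Xist signal and at most 0.061 with any 1 array left out, and 5 of these 8 fits missed the threshold. On the 6 arrays with Xist signal the list held 1 riser in its place, Prom2, the relative of Prom1, at 0.935 (0.0054), against 0.75 as its adjusted p on all 8 arrays. Whether the change of Lgr5 differs from that of Cd44 was not tested.

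**Figure D5:**
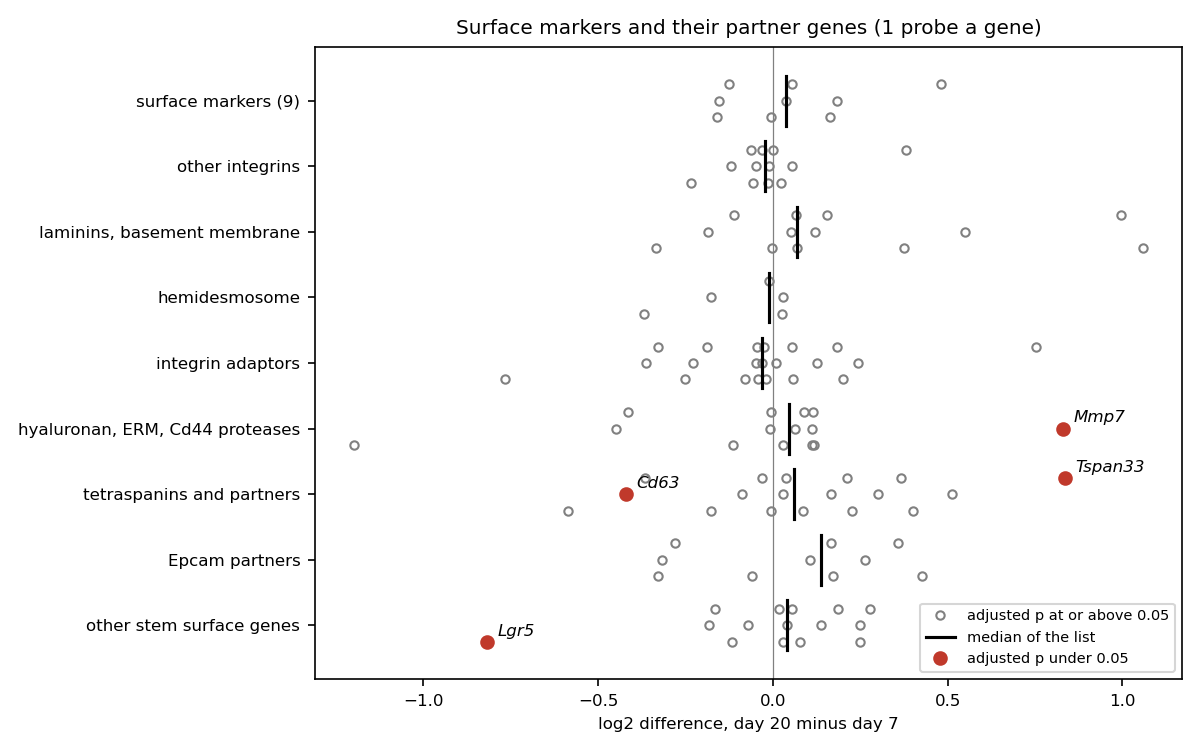
Log2 difference, day 20 minus day 7 (horizontal axis), of every tested gene of the 9 surface markers and of 8 partner lists, 1 probe a gene; filled red points passed limma's adjusted p under 0.05, open points did not, and black lines are list medians. The medians lie between -0.033 and 0.136, and the 4 genes that passed are Mmp7, Tspan33, Cd63 and Lgr5.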

How the data were processed

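Biotin-labelled RNA of 8 organoid samples was read on Illumina arrays, per the labels' protocols, and the values as deposited are log2 intensities, equal in distribution on all arrays. How the authors corrected and normalized them is not given in the sources used here. A second deposited table was not used: its 16 per-sample columns match no sample label. Arrays carry no counts, so there is no depth.

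Of 45281 probes, 34885 had 1 gene symbol in the platform annotation, 18 had several and 10378 are unnamed here. The probe of highest mean stood for each of 19057 genes. The background limit, 6.796, is the 0.95 quantile of a normal distribution centred on the mode of the values, 6.7, with the spread of the values up to the mode, 0.05837, as its SD; genes above it on at least 4 of 8 arrays were tested (a strict limit at a tail of 0.01 is 6.836). limma 3.58.1 in R 4.3.3 (lmFit, eBayes, two-sided, no covariates) was fitted over all genes, and again over all probes, with Benjamini-Hochberg adjustment, and was tested on simulated data. Sequences are from RefSeq, GRCm38.p6; 6 of the 9 genes have an entry.

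The genes, lists and rules were chosen with earlier results of these data known. Named were all 9 genes, the 3 genes closest to Cd44, and from each list its changed genes or, with none, the 3 nearest the threshold. The comparison of probe ratios, and the naming of Prom2, were chosen after the values were seen. Alternatives were cyclic loess, no or a strict filter, the mean of a gene's probes, robust variance with trend, array weights, the background mode subtracted (offset 16), replicate number as a block, the 6 arrays with Xist signal, and each array left out. Figures used matplotlib 3.10.9 in Python 3.11.15.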

Additional observations from a re-analysis of the deposited data

Results flagged for a closer look

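In 78 groups of 4 arrays (20 probes of the 9 genes and the named partner genes, each day apart), 3 held an array far from the other 3, where chance alone gives about 1 in 20. None was a probe of the 9 genes. Plec read 10.77 on day 20 replicate 2 and 11.16 to 11.19 on the other day 20 arrays. Itga2 read 6.99 on day 7 replicate 2 and 7.23 to 7.27 on the other day 7 arrays. Cldn7 read 8.85 on day 7 replicate 4 and 9.11 to 9.13 on the other day 7 arrays.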

How the results depend on the processing

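Under the 17 alternative settings none of the 9 genes passed, except Prom1 without day 20 replicate 2 (0.659, limma adjusted p = 0.04964), so the count of changed members was 0 or 1. Signs of small differences turned. Cd44 was at -0.1052 with array weights and -0.175 on the 6 arrays with Xist signal, and ran from -0.1567 to 0.25 with 1 array left out. Cd9 was at 0.0109 with array weights and ran from -0.1183 to 0.0883 with 1 array left out. With probes averaged Itga6 was at 0.0217 and Itgb1 at 0.00625. With another probe in place of the main one, Cd44 was at -0.065, Itga6 at 0.24 and Itgb1 at 0.1675. Prom1 ran from 0.3842 to 0.6592 with 1 array left out. Cd24a, Prom1, Alcam, Epcam and Itgb4 kept their sign in all 17. Over all genes, 313 were higher and 291 lower; with 1 array left out the counts ran from 140 to 251 and from 161 to 328. On the 6 arrays with Xist signal 272 were higher and 141 lower. The cause of these shifts was not tested, except that leaving out arrays removes samples. Of 272 list counts under the alternatives 242 stayed within 1.5 times the main count, and the other 30 moved by 1 gene or by 2. Day 20 replicates 1 and 4 read as male and day 7 replicates 1 and 4 as female, so those numbers do not join samples of 1 animal. Deviations of same-numbered arrays correlated across genes at 0.119, 0.0503, -0.00957 and 0.142, against -0.171 to 0.151 for the other pairs. Not every array correlated best with its own number. Correlations this weak cannot decide whether replicate numbers pair the samples in another way. With replicate number as a block, 207 genes were higher and 194 lower, and 0 of the 9 members passed. Low signal over background limits Cd24a, Epcam, Alcam and Prom1.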
